A study of Mus musculus with 4 samples.

Results

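Among the cells sorted from the spinal cords (SCs) of mice with experimental autoimmune encephalomyelitis (EAE), a mouse model of multiple sclerosis, 170 of 28513 barcodes (0.596%) carried transcripts of natural killer (NK) cells or cytotoxic T cells. A barcode was a member if it had at least 1500 unique molecular identifiers (UMIs, counted RNA molecules) and under 10% mitochondrial UMIs, at least 2 UMIs of *Nkg7* (a granule membrane gene of cytotoxic lymphocytes), at least 1 UMI of *Ncr1*, *Klre1*, *Klrb1c*, or *Cd8b1*, at most 2 of *Csf3r* and *C1qa*, and at most 1 of the endothelial genes *Cldn5*, *Cdh5*, *Egfl7*, and *Esam*. The 102 members with UMIs of the NK receptor genes *Ncr1*, *Klre1*, or *Klrb1c* and none of *Cd8b1* are called NK-like, the 64 with *Cd8b1* and none of those 3 are called CD8-like, and 4 cells had both. These names come from measured UMIs of the gate genes, so the gate genes were not tested.

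The study asked how angiopoietin-2 (Ang2), an endothelial ligand of the Tie2 receptor, acts in EAE. The mice were immunized with a myelin oligodendrocyte glycoprotein peptide in complete Freund's adjuvant and given pertussis toxin, the dose of which differed between the 2 experiments, and CD45+ leukocytes and CD31+ endothelial cells (ECs) were sorted in equal numbers for 3′ single-cell RNA-Seq. There was 1 library per condition, and how many mice each library pooled is not given in the sources used here. In the first pair, wild-type C57Bl/6JOlaHsd mice aged 15 weeks received mouse IgG1 (mIgG1) or an Ang2-blocking antibody (Ang2 Ab) from immunization on, and SCs were taken at 14 days post immunization (dpi). In the second pair, aged 12 to 14 weeks and of strain C57Bl/6JCrl, *EC-Ang2* mice were double transgenic, with *Tet-OS-Ang2* driven in ECs by *VE-cadherin-tTA* and kept off with doxycycline until birth, and were compared with single transgenic littermates (Ctrl) at 12 dpi. Strain, age, time, and toxin dose therefore differed between the pairs, and within a pair the library cannot be told apart from the condition.

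NK cells are innate lymphocytes that kill stressed or infected cells without rearranged antigen receptors, and they read activating and inhibitory receptors of the Ly49 (*Klra*), NKG2 (*Klrc*, *Klrk1*, *Klrd1*), and NKR-P1 (*Klrb1*) families. Several of these receptors signal through the adaptors DAP12 (*Tyrobp*) and FcεRIγ (*Fcer1g*). CD8 T cells recognize peptides on MHC class I through a T cell receptor bound to the CD3 chains, helped by the CD8α/CD8β coreceptor, and share perforin and granzymes with NK cells as their means of killing. Both enter the inflamed CNS in EAE, where CD4 Th cells start the disease.

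The 4 promoters printed here belong to *Xcl1*, *Gzma*, *Fcer1g*, and *Cd8a*, which were chosen because they mark the difference between NK-like and CD8-like cells described below. Each line holds the 250 bases before the RefSeq start of the gene (GRCm38.p6), 5′ to 3′ on the strand of the gene. The *Xcl1* and *Fcer1g* windows reach 5 and 16 bases past the start of the gene in GENCODE M21, the source of gene positions used below. Capitals mark matches on either strand to 3 fixed motifs of lymphocyte factors, a T-box core (GGTGTGA), a RUNX motif (TGTGGTT), and a TCF/LEF core (CTTTGAA).
Xcl1, chr1:164935523-164935772, minus strand: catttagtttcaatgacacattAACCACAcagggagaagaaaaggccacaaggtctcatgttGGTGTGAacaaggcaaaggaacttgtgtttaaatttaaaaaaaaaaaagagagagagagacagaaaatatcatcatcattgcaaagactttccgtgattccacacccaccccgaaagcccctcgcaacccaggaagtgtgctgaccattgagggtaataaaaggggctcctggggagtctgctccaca
Gzma, chr13:113100982-113101231, minus strand: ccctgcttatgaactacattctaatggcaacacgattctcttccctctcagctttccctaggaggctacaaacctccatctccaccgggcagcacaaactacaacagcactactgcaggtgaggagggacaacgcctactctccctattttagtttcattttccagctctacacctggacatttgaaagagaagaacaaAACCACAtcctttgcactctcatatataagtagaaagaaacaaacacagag
Fcer1g, chr1:171234350-171234599, minus strand: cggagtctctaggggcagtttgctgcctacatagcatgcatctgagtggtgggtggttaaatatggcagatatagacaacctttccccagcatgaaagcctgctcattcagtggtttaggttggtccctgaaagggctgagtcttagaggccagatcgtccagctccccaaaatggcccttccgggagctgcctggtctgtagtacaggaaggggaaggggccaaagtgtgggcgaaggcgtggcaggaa
Cd8a, chr6:71373177-71373426, plus strand: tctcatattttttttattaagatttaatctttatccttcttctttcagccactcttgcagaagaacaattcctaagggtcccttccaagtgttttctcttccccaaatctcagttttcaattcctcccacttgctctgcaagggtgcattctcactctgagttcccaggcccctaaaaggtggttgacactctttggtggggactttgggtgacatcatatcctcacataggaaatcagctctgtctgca
The *Xcl1* window held the T-box core 188 bases and the RUNX motif (as AACCACA) 228 bases before the RefSeq start. The *Gzma* window held the RUNX motif 51 bases before that start. The *Fcer1g* and *Cd8a* windows held none of the 3. Of all 32851 RefSeq promoter windows of this length, 3.33% held the T-box core, 4.40% the RUNX motif, and 4.46% the TCF/LEF core. These matches describe the letters of the windows only.

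Members were found in all 4 libraries, 39 (mIgG1), 52 (Ang2 Ab), 37 (Ctrl), and 42 (*EC-Ang2*). Relative to barcodes passing the immune gate (at least 1 *Ptprc* UMI and at most 1 UMI of the 4 endothelial genes) or the member rule, they made up 2.31% (95% exact binomial interval 1.65% to 3.15%) in mIgG1 and 2.79% (2.09% to 3.64%) in Ang2 Ab. In Ctrl the share was 2.24% (1.58% to 3.08%), and in *EC-Ang2* it was 2.44% (1.76% to 3.28%). All 4 intervals overlapped, and a difference in abundance between conditions could not be tested without replicate libraries. The shares moved with the treatment of depth. With barcodes thinned to 1500 UMIs before the gates they were 3.34% (mIgG1), 3.74% (Ang2 Ab), 2.73% (Ctrl), and 2.41% (*EC-Ang2*), and with a minimum of 2500 UMIs 1.81%, 1.79%, 2.22%, and 2.32% in the same order, again with overlapping intervals in each setting. The sort took equal numbers of leukocytes and ECs, so these shares do not give cell numbers per SC. With 1 library per condition, these and all later intervals cover counting error only.

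As gated, NK-like cells were the larger class in each library, making up 23, 36, 19, and 24 members with the libraries taken in the order just given. The corresponding shares were 59.0% (42.1% to 74.4%), 69.2% (54.9% to 81.3%), 51.4% (34.4% to 68.1%), and 57.1% (41.0% to 72.3%), with overlapping intervals. CD8-like cells numbered 15, 13, 18, and 18. NK-like cells without CD3 UMIs, described below, numbered 10, 17, 12, and 17, which was fewer than CD8-like cells in every library but Ang2 Ab. Of the cells with both kinds of gate gene, 1 was in mIgG1 and 3 in Ang2 Ab.

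**Figure D1:**
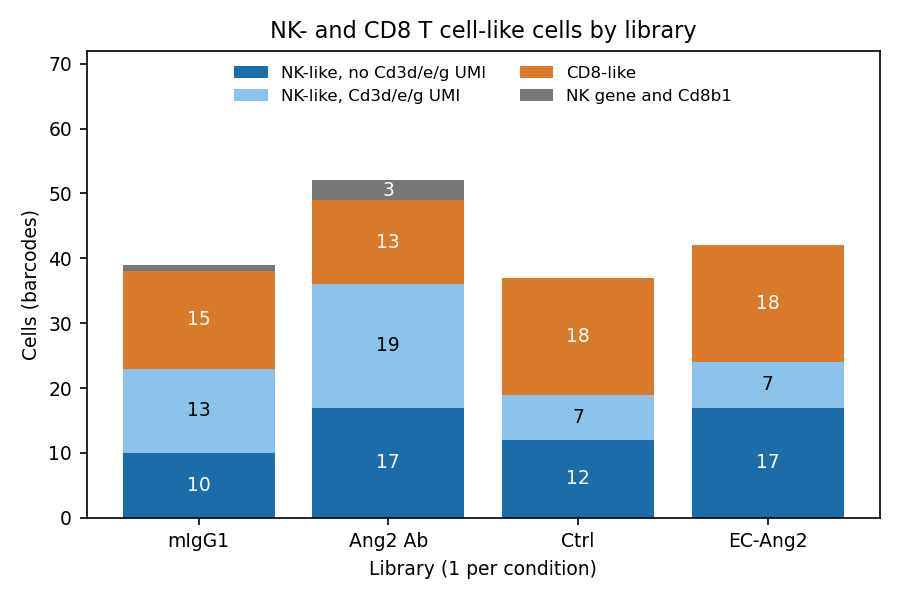
Number of member cells (y axis) in each of the 4 libraries (x axis), stacked by class, with NK-like cells split by whether they had any UMI of *Cd3d*, *Cd3e*, or *Cd3g*. NK-like cells without CD3 UMIs numbered 10 to 17 per library, and those with CD3 UMIs fell between 7 and 19.

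The median member held 3732.5 UMIs, with library medians of 3621 (mIgG1), 2692.5 (Ang2 Ab), 3952 (Ctrl), and 4710.5 (*EC-Ang2*). NK-like cells had a median of 3203.5 UMIs, CD8-like cells 4562, Th-like cells 4078, and ECs (at least 4 UMIs of the endothelial genes and no *Ptprc*) 4288. At the edges of the rule, 18 members had exactly 2 *Nkg7* UMIs, against 18 barcodes with 1 that met every other line. Likewise, 37 members had a single UMI over *Ncr1*, *Klre1*, *Klrb1c*, and *Cd8b1*, and 259 barcodes had none. The limit on *Csf3r* and *C1qa* was just met by 17 members and just missed by 5 barcodes, and the endothelial limit by 59 and 19. No member barcode was a member in a second library, and 4 of the 170 also passed the filters in another library, compared with 865 of all 28513.

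CD3 transcripts divided the NK-like cells. Of the 102 NK-like cells, 56 had no UMI of the CD3 chains *Cd3d*, *Cd3e*, and *Cd3g*, and 46 (45.1%, interval 35.2% to 55.3%) had at least 1, with a median of 9 CD3 UMIs per cell. Of these 46, 17 had a single UMI over *Ncr1*, *Klre1*, and *Klrb1c*, against 3 of the 56, so more of the cells with CD3 UMIs lay at the edge of the rule. Of ECs, which should lack CD3, 421 of 13793 had at least 1. All 56 CD3-negative cells had UMIs of both *Tyrobp* and *Fcer1g*, and none had a UMI of *Cd8a* or *Cd4*. *Gzma*, which encodes granzyme A, was found in 51 of the 56, *Klrd1* (CD94) in 48, *Klrk1* (NKG2D) in 47, and *Eomes*, a T-box factor of NK cells, in 18. Among the 46 cells with CD3 UMIs, *Tyrobp* was found in 34, *Fcer1g* in 39, *Gzma* in 10, *Cd4* in 11, and *Cd8a* in 4. The NK-like label may therefore not hold for every cell with CD3 UMIs. The T cell receptor constant genes are not among the genes of the files, so the split used *Cd3d*, *Cd3e*, and *Cd3g*. *Cd247*, a further chain of the complex, was measured but not used for the split. It was found in 33.9% of the NK-like cells without CD3 UMIs and in 47.8% of those with them.

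The cells with CD3 UMIs were deeper, with a median of 4738.5 UMIs against 2424. They held 279636 of the 450726 UMIs of NK-like cells and so weigh most in the NK-like sums used below. After each cell was thinned to 1500 UMIs, which left out none, 61 of 102 NK-like cells had an adaptor UMI and no CD3 UMI, 30 had both, 10 had CD3 only, and 1 had neither. Of the 64 CD8-like cells, 47 had CD3 only, 17 had both, and none had an adaptor UMI without CD3. In Th-like cells (at least 2 CD3 UMIs, *Cd4*, at most 1 *Nkg7* UMI, and no NK gate gene or *Cd8b1*), the corresponding numbers were 250, 86, and 5 of 344. CD3 chains were thus part of the gate for Th-like cells, but not for members. Per library, the share of NK-like cells with CD3 UMIs was 56.5% (34.5% to 76.8%, mIgG1), 52.8% (35.5% to 69.6%, Ang2 Ab), 36.8% (16.3% to 61.6%, Ctrl), and 29.2% (12.6% to 51.1%, *EC-Ang2*), with overlapping intervals.

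**Figure D2:**
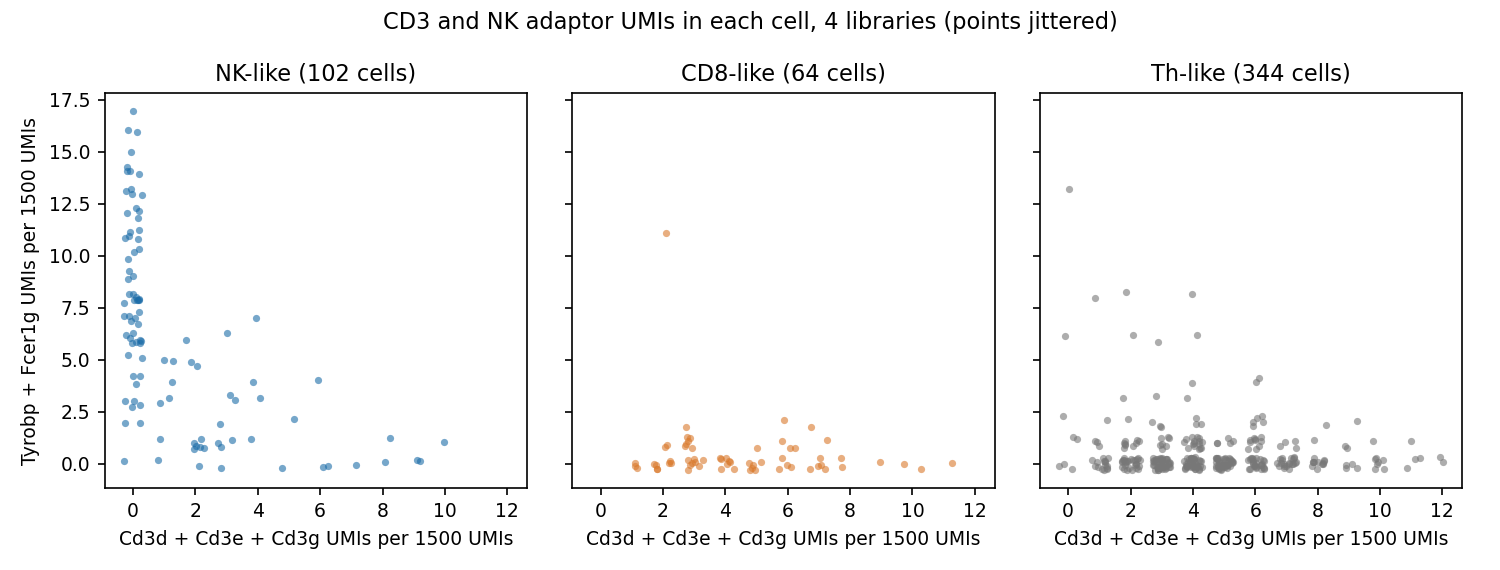
UMIs of the CD3 chains (x axis) against UMIs of the adaptors *Tyrobp* and *Fcer1g* (y axis) in each cell after thinning to 1500 UMIs, for NK-like, CD8-like, and Th-like cells of the 4 libraries, with points jittered. Of the 102 NK-like cells, 61 lie on the left edge with adaptor UMIs and no CD3 UMI, where no CD8-like cell lies.

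All 64 CD8-like cells had CD3 UMIs, and 36 (56.3%) had *Cd8a*, the partner chain of the gate gene *Cd8b1*. *Cd4* UMIs were found in 15 CD8-like cells, 4 of which also had *Cd8a*. *Il17a*, the cytokine gene of Th17 cells, was found in 9 CD8-like cells, and of these 6 had *Cd4* and 3 had *Cd8a*. After thinning to 1500 UMIs, *Cd4* was found in 9.38% and *Il17a* in 9.38% of CD8-like cells. *Cd4* was also found in 40 of 13793 ECs and in 297 of 6477 immune barcodes outside the members and Th-like cells. The CD8-like label may therefore not hold for every cell.

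Markers of other cell types were measured in the 170 members as well. *Cd79a*, *Ms4a1*, and *Pax5* of B cells, *Cpa3*, *Fcer1a*, *Mcpt8*, and *Ms4a2* of mast cells and basophils, and *Jchain* and *Mzb1* of plasma cells were at 0. Of the same lists, *Cd79b* was found in 3 members (5.04 CPM), *Gata2* in 2 (2.52 CPM), *Sdc1* in 1 (3.78 CPM), and *Xbp1*, which is also expressed outside plasma cells, in 59 (96.9 CPM). The T helper list (*Cd4*, *Cd40lg*, *Icos*, *Tnfsf8*, and *Tnfrsf4*) was detected in full, at a summed 932 CPM (UMIs scaled to a total of 1000000) in members, against 126 CPM in empty droplets (10 to 100 UMIs) of the same libraries and 2451 CPM in Th-like cells. Its most abundant gene was *Tnfrsf4* (447 CPM, in 37 members). The summed level of the T helper list was 581 CPM in NK-like and 1468 CPM in CD8-like cells, and in CD8-like cells it ran from 749 CPM in Ang2 Ab to 1960 CPM in *EC-Ang2*. The 5 genes of the regulatory T list were also all detected, at 752 CPM against 77.0 CPM in empty droplets, led by *Tnfrsf18* (318 CPM, in 89 members). *Foxp3* of this list was at 0 in Ang2 Ab and Ctrl members and at 21.7 CPM in the pooled CD8-like cells. The list level therefore came mostly from its other genes. All 8 genes of the monocyte and macrophage list were detected, at a summed 1795 CPM, against 8855 CPM in empty droplets. The most abundant of these genes was *Lyz2*, found in 105 members at 833 CPM. The summed level of the 8 genes of this list per library was 2294 (mIgG1), 2012 (Ang2 Ab), 2225 (Ctrl), and 961 CPM (*EC-Ang2*) over all members. In NK-like cells the list summed to 2526, 2485, 337, and 1186 CPM in the same order, and in CD8-like cells 1927, 556, 4113, and 775 CPM. The part of the transcripts of these lists in the differences between libraries was not tested. All 7 genes of the ILC2 and ILC3 list were detected, the most abundant of which was *Il22* at 200.2 CPM, from 3 members.

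Pooled over the 4 libraries, and with ribosomal and mitochondrial genes set aside, *Ccl5* (the chemokine RANTES) was the fourth most abundant gene of the members at 8345 CPM, found in 142 of 170 cells, and stood at 938 CPM in other immune barcodes (members and Th-like cells left out). *Gzma* was at 2443 CPM in 71 members and at 11.1 CPM in other immune barcodes. The 20 genes with the largest ratio to other immune barcodes included, beside the gate genes, the receptors *Klra1*, *Klra4*, *Klra7*, *Klra8*, *Klra9*, *Klrb1a*, *Klri2*, and *Cd160*, the chemokine gene *Xcl1*, the granzyme genes *Gzma* and *Gzmk*, *Eomes*, and *Cd8a*. These ratios describe cells chosen by related genes and carry no test.

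The replicated comparison in this design is between classes within each library. UMIs were summed per library and class, and edgeR's quasi-likelihood test with the library as a block compared NK-like, CD8-like, and Th-like sums over 4 libraries each. Because the classes were drawn by gate genes of these same cells, genes that accompany the gate genes had to differ, and the test covers only whether a gene outside the gates differed beyond the spread between libraries. Of 1996 genes outside the gates, 19 (0.952%) were higher and 25 (1.25%) lower in NK-like than in CD8-like cells at an adjusted p under 0.05 (Benjamini-Hochberg). Both counts moved when 1 library was left out, and were then smallest without *EC-Ang2*. Both rose when only NK-like cells without CD3 UMIs were used, although fewer genes were then tested, and the values are given at the end. A gene was tested if at least 4 of the 12 sums reached 79.1 CPM. Of the genes higher in NK-like cells, 10 of 19 met this only with the NK-like sums (among them *Gzma*, *Xcl1*, *Klra7*, *Klra8*, *Klra9*, *Car2*, *Lat2*, *Bcl2l11*, and *H2-Aa*), and 3 of the 25 lower genes only with the CD8-like sums (*Cd8a*, *Bcl11b*, and *Vsir*, the last named here after its values were seen). For these genes entry into the test favored the direction, and their fitted values are a description. Where libraries serve as the replicates here, each also carries its own condition, and the spread includes both.

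*Fcer1g* and *Tyrobp* separated the classes in every library. The *Fcer1g* level in NK-like cells was 1474 (mIgG1), 1645 (Ang2 Ab), 2480 (Ctrl), and 1698 CPM (*EC-Ang2*), and in CD8-like cells it was 178, 128, 349, and 67.1 CPM. The lowest NK-like library lay above the highest CD8-like library, and the log2 fold change was 3.48 ± 0.30 (SE, n = 4 libraries, adjusted p = 2.48e-05 by edgeR). *Tyrobp* gave 3.42 ± 0.37 (SE), again without overlap. Of the 5 genes tested on the list of NK signaling adaptors, these 2 were higher and 3 did not pass. The list median was 0.16, against 0.952% higher, 1.25% lower, and a median of −0.01 over all 1996 genes. In CD8-like cells, *Fcer1g* was found in 35.9% of cells (15.6% after thinning) and *Tyrobp* in 35.9% (14.1%), against 38.4% (15.99%) and 37.8% (16.04%) of ECs, which should lack both. The CD8-like shares were at or below that background.

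*Gzma* was the most abundant gene of the cytotoxic granule list among those called. Its level in NK-like cells was 3360 (mIgG1), 3347 (Ang2 Ab), 4188 (Ctrl), and 5498 CPM (*EC-Ang2*), and in CD8-like cells 469.7, 642, 710.3, and 44.7 CPM. The ranges did not overlap, and the fitted log2 fold change was 3.38 ± 0.53 (SE). In Ctrl, 1 CD8-like cell held all 57 *Gzma* UMIs of its class. Of the NK-like cells, 59.8% had a *Gzma* UMI (54.9% after thinning), as did 14.1% of CD8-like cells (10.9%), 1.16% of Th-like cells (0.29%), and 0.40% of ECs (0.15%).

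Within NK-like cells, *Gzma* stood at 9130 CPM in the 56 cells without CD3 UMIs and at 912 CPM in the 46 with them, found in 91.1% and 21.7% of cells (89.3% and 13.0% after thinning). *Ccl5* was at 21591 and 4738 CPM in these 2 sets. *Klrd1* was at 953 and 540 CPM, and *Klrk1* at 836 and 250.3 CPM. In CD8-like cells *Ccl5* was at 4484, *Klrd1* at 250.8, *Klrk1* at 177, and *Gzma* at 378 CPM, so that for these genes the cells with CD3 UMIs lay between the cells without them and CD8-like cells. They lay below both for *Gzmb* (1695 CPM without CD3 UMIs, 558 with them, and 731 in CD8-like cells), *Serpinb6b* (1227, 200.3, and 266), and *Serpinb9* (1169, 247, and 260.1). This split used CD3 genes and is a description.

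*Gzmb*, which encodes granzyme B, did not pass the test between NK-like and CD8-like cells. It was at 278, 1232, 1869.7, and 809 CPM in NK-like cells (libraries in the same order) and at 907, 855, 548, and 715 CPM in CD8-like cells, with overlapping ranges. *Serpinb9*, an inhibitor of granzyme B, was higher in NK-like cells by 1.30 ± 0.17 (log2, SE, adjusted p = 0.00073 by edgeR). The remaining 6 of 8 genes tested on the list of granule genes did not pass, and the median log2 fold change of the list was 0.62, against 0.952% higher, 1.25% lower, and a median of −0.01 over all genes tested. *Prf1* (perforin) was too low to be tested, with 12 UMIs in NK-like and 4 in CD8-like cells.

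The chemokine *Xcl1* (lymphotactin, which attracts cross-presenting dendritic cells) was almost restricted to NK-like cells among the members. The level was 354 (mIgG1), 1125 (Ang2 Ab), 1558 (Ctrl), and 386 CPM (*EC-Ang2*), whereas CD8-like cells held 2 *Xcl1* UMIs in all, 1 in mIgG1 and 1 in Ctrl. The ratio of the pooled levels was 132, with a counting interval of 36.2 to 1093 (fitted log2 fold change 6.84 ± 0.46, SE). NK-like cells had a *Xcl1* UMI in 56 of 102 cases (36.3% after thinning), ECs in 0.094% (0.044%). *Ccl5* did not pass between the 2 classes, at 7915 to 14967 CPM in the NK-like libraries and 1580 to 12098 CPM in the CD8-like libraries.

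Several receptors of the NK gene complex were higher in NK-like cells. The *Klr* genes of the receptor list other than *Klrg1*, with the gate genes *Klre1* and *Klrb1c*, are 17 genes between chr6:128609227-130386874 (GRCm38, GENCODE M21), a span of 1778 kb. Of the 20 genes of the receptor list, 8 passed the filter on low counts, and *Klrk1*, *Klrd1*, *Klra7*, *Klra8*, and *Klra9* were called higher. None was called lower. The list median was 1.73, against 0.952% higher, 1.25% lower, and a median of −0.01 over all 1996 genes. *Klra7*, *Klra8*, and *Klra9* had 2 UMIs or fewer in CD8-like cells and none in Th-like cells, and the number of calls on this list is a description. *Klra8* (Ly49H) had 122 UMIs and *Klra9* 59 in NK-like cells and both had none in CD8-like cells, so that they were at least 29.1-fold and at least 14.1-fold higher against a floor of 3 counts per class. Neither passed with DESeq2 (adjusted p = 0.602 and 0.782). *Klra9* was also lost without mIgG1 (edgeR adjusted p = 0.0511), without Ctrl (0.0515), and without *EC-Ang2* (0.102). *Klra7* (Ly49G) had 181 UMIs against 2, a ratio of 64.8 (counting interval 17.7 to 540). The last 300 bases of the longest coding transcripts of *Klra3* and *Klra9* were 98.7% identical and those of *Klra8* and *Klra9* 79.2%, so reads of *Klra9* and *Klra3* may not have been told apart.

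*Klrk1* and *Klrd1* were also present in CD8-like cells. *Klrk1* was at 303, 449, 760.3, and 476 CPM in NK-like and at 178, 235, 174, and 156 CPM in CD8-like libraries (mIgG1, Ang2 Ab, Ctrl, *EC-Ang2*). *Klrd1* was at 733, 762, 823, and 485 CPM and at 437, 278, 287, and 134 CPM. The ranges did not overlap for either gene, and the log2 fold changes were 1.43 ± 0.26 and 1.39 ± 0.30 (SE).

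Other genes higher in NK-like cells were *Irf8*, a transcription factor (3.84 ± 0.46, 346 against 19 UMIs), *Car2*, a carbonic anhydrase (4.15 ± 0.69, 148 against 7 UMIs), *Lat2*, an adaptor (2.72 ± 0.60), and *Bcl2l11*, which encodes the proapoptotic BIM (2.13 ± 0.46), all as log2 fold change ± SE. *Lat2* was lost without any one of the 4 libraries (edgeR adjusted p = 0.0743 to 0.112) and *Bcl2l11* without Ang2 Ab (0.147), without *EC-Ang2* (0.115), or with at least 2500 UMIs per barcode (0.0637). *H2-Aa*, an MHC class II chain, was called at 3.68 ± 0.89 (edgeR adjusted p = 0.0495). The call was lost with DESeq2 (adjusted p = 0.0524), without the library block (edgeR, 0.136), without mIgG1 (0.0793), without Ang2 Ab (0.114), and with at least 2500 UMIs per barcode (0.0579). Without the cells that had 20 or more UMIs of *Cd74* and *Lyz2* together (6 members), the *H2-Aa* log2 fold change was 0.07 (edgeR adjusted p = 0.994).

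*Cd8a*, the partner chain of the gate gene *Cd8b1*, had 5 UMIs in NK-like and 128 in CD8-like cells, and NK-like cells had to lack *Cd8b1* by the rule. *Lat*, the adaptor of T cell receptor signaling, was at 438, 199, 312, and 296 CPM in NK-like and at 1085, 834, 798, and 812 CPM in CD8-like libraries (mIgG1, Ang2 Ab, Ctrl, *EC-Ang2*), a difference of −1.49 ± 0.19 with no overlap. *Icos*, a costimulatory receptor, was at 84.2, 178, 162, and 153 CPM and at 502, 449, 374, and 596 CPM (−1.68 ± 0.27). *Icos* lost its call without *EC-Ang2* (edgeR adjusted p = 0.0609). Of the 11 genes of the T cell receptor list tested, *Cd8a*, *Lat*, *Thy1*, and *Bcl11b* were lower and none was higher, with a median of −0.90, against 1.25% lower, 0.952% higher, and a median of −0.01 over all 1996 genes. Without *Cd8a* and *Bcl11b*, which entered the test through the CD8-like sums, *Lat* and *Thy1* are left. *Bcl11b* passed in only 2 of 11 alternatives.

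*Ifi27l2a*, an interferon-inducible gene, was lower in NK-like cells of all 4 libraries, at 168, 249.2, 162, and 368 CPM in NK-like and 2105, 2759, 1757, and 984 CPM in CD8-like libraries (−2.87 ± 0.33, edgeR adjusted p = 0.000327). On the interferon response list, which did not hold *Ifi27l2a*, *Ly6a* (−1.24 ± 0.26) and *Bst2* (−1.03 ± 0.24) were lower, 11 of 13 did not pass, and the list median was −0.78, against 1.25% lower and a median of −0.01 over all 1996 genes. *Gpr183*, a receptor for oxysterols, *Il2ra* (CD25), *Tmem176a*, and *Tmem176b* were lower by 1.62 to 1.87 on the log2 scale, and each lost its call without *EC-Ang2* and without at least 1 other library (highest edgeR adjusted p = 0.110, 0.367, 0.195, and 0.195 over all alternatives). *Il17a* was also called lower (−4.11 ± 0.96), but 3 libraries were lower and 1 higher, and the *EC-Ang2* library held 286 of the 318 CD8-like UMIs. No gene of the migration and homing list (12 tested), the MHC class I list (10), or the cell cycle list (3) passed, against 0.952% higher and 1.25% lower over all genes. Neither of the 2 genes tested on the list of NK and ILC1 surface genes passed, with a list median of −0.33.

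**Figure D3:**
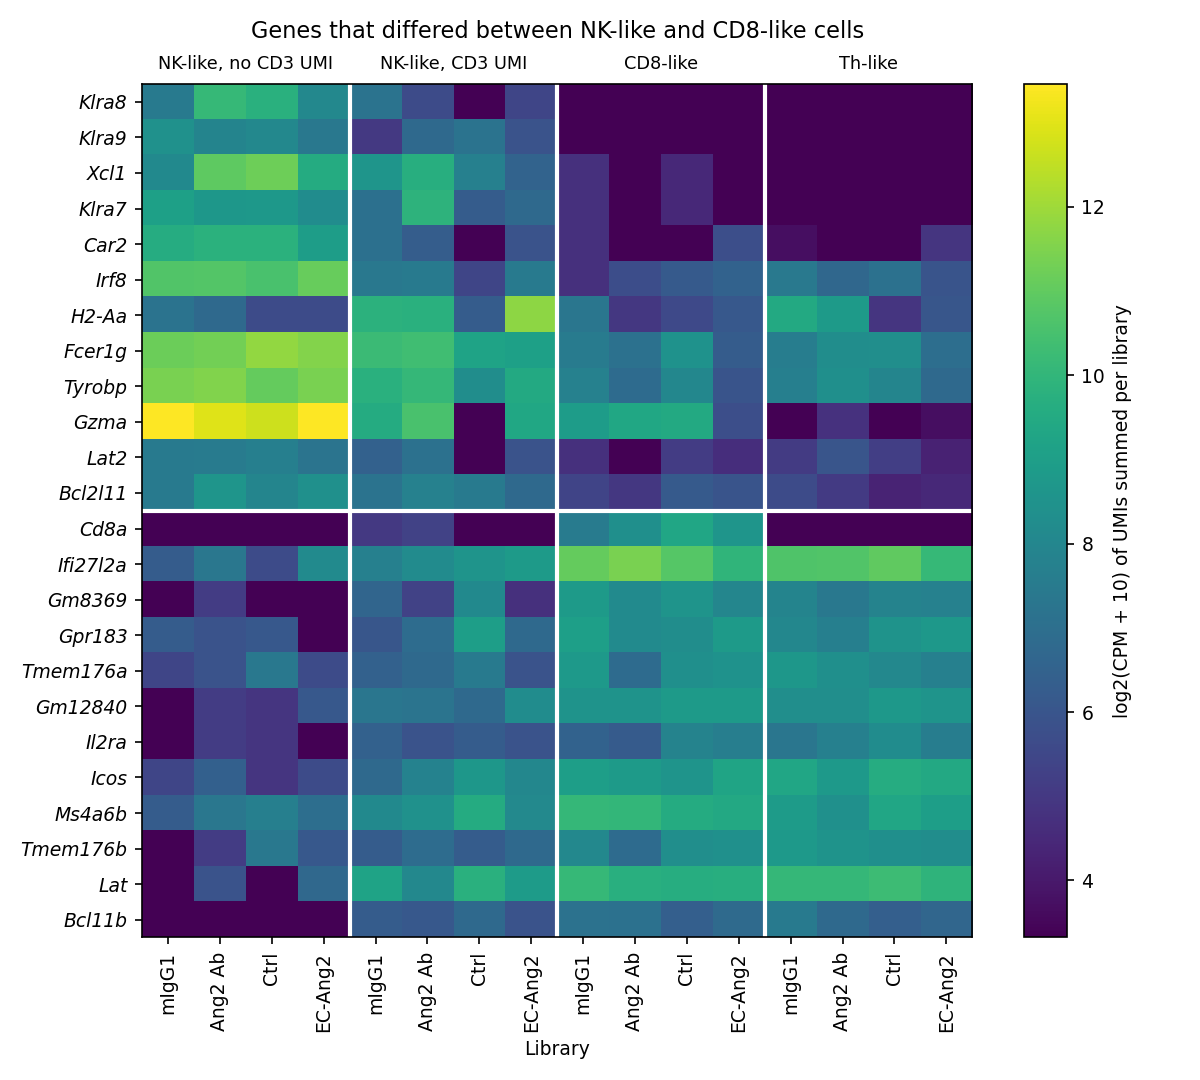
Level of the 24 genes named for the NK-like against CD8-like comparison (rows, 12 higher above and 12 lower below the white line) in each library (columns) of NK-like cells without and with CD3 UMIs, CD8-like cells, and Th-like cells, as log2(CPM + 10) of summed UMIs. *Fcer1g*, *Tyrobp*, and *Gzma* are brightest in NK-like cells without CD3 UMIs, and *Lat* and *Ifi27l2a* are bright in CD8-like and Th-like cells alike.

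Compared with Th-like cells, NK-like cells had 77 genes higher (3.86%) and 100 lower (5.01%) of 1996. Of these, 27 and 25 entered the test only with the sums of the class in which they were higher, among them *Gzma*, *Xcl1*, *Cst7*, *Klra7*, *Klra8*, *Klra9*, and *Klrc2*, and on the other side *Il17a*, *Il2ra*, and *Cd5*. *Xcl1*, *Klra7*, *Klra8*, and *Klra9* had no UMI in 344 Th-like cells, and NK-like levels were at least 462-fold, 227-fold, 153-fold, and 74.0-fold higher. *Klra8* and *Klra9* did not pass with DESeq2 (adjusted p = 0.120 and 0.185). *Gzma* had 8 UMIs in Th-like cells (log2 fold change 9.68 ± 0.75, SE). *Ccl5* was at 11135 against 318 CPM (5.96 ± 0.67), and 1193 CPM of *Ccl5* was reached in Th-like cells of mIgG1, the highest of their 4 libraries. Of the cytotoxic granule list, *Gzma*, *Gzmb* (2.04 ± 0.41), *Ctsw*, *Serpinb6b* (2.47 ± 0.33), *Serpinb9* (2.67 ± 0.16), *Lamp1*, and *Cst7* were higher, and *Srgn*, the core protein of granule proteoglycan, was lower (−0.57 ± 0.14).

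Other receptor genes that were higher in NK-like than in Th-like cells were *Klrd1* by 3.78 ± 0.30, *Klrk1* by 3.70 ± 0.25, *Klrc2* by 2.91 ± 0.42, and *Klrc1* (NKG2A) by 1.80 ± 0.24 (log2, SE). The chemokine *Ccl4* (2.48 ± 0.36) and the transcription factor genes *Runx3* (0.83 ± 0.20) and *Irf8* (2.98 ± 0.34) were higher as well. Lower were *Il17a* (12 against 1220 UMIs), the T cell surface gene *Cd5* (−2.42 ± 0.44), *Tnfrsf4*, which encodes OX40 (−2.28 ± 0.40), *Il2ra* (−2.14 ± 0.33), and *Icos* (65 against 1074 UMIs). Of 6 cytokine receptors tested, *Il2ra*, *Il7r*, *Il18r1*, and *Il21r* were lower and none was higher, with a list median of −0.91, against 5.01% lower, 3.86% higher, and a median of 0.01 over all genes.

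CD8-like cells had fewer calls against Th-like cells, with 10 genes higher (0.501%) and 1 lower (0.0501%) of 1996. The numbers of calls were not compared by a test. CD8-like sums held 322941 UMIs, against 450726 in NK-like sums. The Th-like gate asked for CD3 UMIs, which all CD8-like cells had and 56 NK-like cells lacked. The counts of calls therefore do not measure how close the classes are. *Cd8a* was absent from Th-like cells and at least 224-fold higher, and it entered the test only with the CD8-like sums. *Gzma* was higher by 6.30 ± 0.83 (log2, SE), *Ccl5* by 4.28 ± 0.61, *Amica1*, a junctional adhesion gene, by 3.27 ± 0.49, *Klrd1* by 2.40 ± 0.34, and *Klrk1* by 2.26 ± 0.30. *Gpr18*, the costimulatory gene *Cd27*, *Serpinb9*, and *Ms4a4b* were higher by 1.23 to 2.00. *Ccl5* was lost without the library block (edgeR adjusted p = 0.0503), *Gpr18* without Ang2 Ab (0.0666), and *Cd27* without the block (0.0818), Ang2 Ab (0.139), or Ctrl (0.110). The only lower gene was *Ecm1* (−2.12 ± 0.31), which encodes an extracellular matrix protein. It entered the test only with the Th-like sums, and it was lost without the library block (edgeR adjusted p = 0.131). The NK-like and CD8-like comparisons with Th-like cells share the same Th-like sums. Of the T cell receptor list, 10 of 11 genes did not pass between CD8-like and Th-like cells.

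The 2 library pairs ask what Ang2 blockade and endothelial Ang2 excess did to these cells. With 1 library per condition there is no test, and genes were described by size, as those at least 1.5-fold apart among genes with UMIs in at least 10% of the members of 1 library and at least 20 UMIs over both libraries together. In Ang2 Ab against mIgG1, 229 of 2449 genes (9.35%) were higher and 365 (14.9%) lower, and the 95% counting interval excluded 0 for 71 and 130 of them. In *EC-Ang2* against Ctrl, 361 of 2627 (13.7%) were higher and 340 (12.9%) lower, with 97 and 99 intervals excluding 0. A gene could enter through 1 library alone, which favored a difference for genes low in the other library, so these counts and intervals are a description. The intervals treat each UMI as independent and leave out the spread between cells, so they are too narrow where few cells hold the UMIs. The ratios over all members also carry the share of each class in a library.

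Interferon response genes were higher in Ang2 Ab than in mIgG1, with 8 of 12 measured past 1.5-fold, none lower, and a median log2 ratio of 0.63 (−0.05 over all genes), against 9.35% higher and 14.9% lower of all genes measured. *Isg15* was at 158 (mIgG1) and 569.95 CPM (Ang2 Ab, log2 ratio 1.85, interval 1.25 to 2.49), found in 12 of 39 and 23 of 52 cells, although 1 cell held 47 of the 117 UMIs in Ang2 Ab. The *Isg15* ratio was 2.34 (1.18 to 3.74) in NK-like and 2.20 (1.48 to 2.97) in CD8-like cells. *Irf7*, the regulator of type I interferon, was at 60.1 and 214 CPM (1.84, 0.86 to 2.94) and found in 8 and 22 cells. The summed level of the 15 genes of this list was 1890 (mIgG1), 3322 (Ang2 Ab), 3328 (Ctrl), and 4929 CPM (*EC-Ang2*), and mIgG1 was the lowest of the 4. In NK-like cells without CD3 UMIs the order of the second pair turned, with 1340 (mIgG1), 2522 (Ang2 Ab), 2409 (Ctrl), and 2101 CPM (*EC-Ang2*). Th-like cells gave 3255, 4120, 6969, and 5118 CPM for these libraries, so the low level in mIgG1 was not particular to the members. There too, Ctrl lay above *EC-Ang2*. In *EC-Ang2* against Ctrl, 4 of 13 were higher, among them *Ly6a* (0.96, 0.71 to 1.22) and *Gbp2* (1.90, 0.97 to 2.98), and *Irf1* was past the size on the other side (−0.61, −1.44 to 0.21). The list median was 0.39, and 13.7% of all genes measured were higher and 12.9% lower in this pair.

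Among the genes with the largest rise in Ang2 Ab were *Cxcl10*, a chemokine induced by interferon (61 against 2 UMIs, with 31 in 1 cell), *Chil3* (60 against 11, with 53 in 1 cell), *Fgl2* (39 against 6, found in 22 and 6 cells), *Trim30a* (25 against 4, in 15 and 4 cells), and *Socs1*, a feedback inhibitor of cytokine signaling (23 against 4, in 18 and 3 cells). *Cxcl10* was found in 7 Ang2 Ab cells and 1 mIgG1 cell, and *Chil3* in 8 and 3. *Ccl1* was the largest fall, from 436 UMIs to 1, of which a single mIgG1 cell held 283. *Ifng*, the gene of interferon-γ, was at 552 (mIgG1) and 107 CPM (Ang2 Ab, log2 ratio −2.36, −3.10 to −1.69), found in 10 of 39 and 7 of 52 cells, and 1 cell held 38 of the 101 UMIs in mIgG1. Of the cell cycle list, 4 of 5 genes measured were lower (*Tyms*, *Birc5*, *Top2a*, and *Stmn1*) and none higher, against 14.9% lower of all genes measured, with a list median of −1.16 on the log2 scale. The direction of the levels differed between the classes, which was not tested. The summed level of the list in NK-like cells was 3006 (mIgG1) and 805 CPM (Ang2 Ab), and in CD8-like cells 534 and 2652 CPM, where 1 Ang2 Ab cell held 25 of the 31 *Stmn1* UMIs. Levels in NK-like cells can rest on few cells as well. Over all libraries, *Birc5* was found in 3.57% of NK-like cells without CD3 UMIs and 15.2% of those with them.

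*Xcl1* differed in opposite directions in the 2 pairs. Over all members it was at 235 CPM in mIgG1 and 784 in Ang2 Ab (log2 ratio 1.74, 1.25 to 2.26), and at 785 CPM in Ctrl and 175 in *EC-Ang2* (−2.16, −2.70 to −1.65). *Xcl1* was found in 10 of 39 and 26 of 52 cells in the first pair and in 12 of 37 and 11 of 42 cells in the second, so that in the second pair the level differed while the number of positive cells was similar. In Ctrl, 1 cell held 41 of 126 UMIs. Within NK-like cells without CD3 UMIs, *Xcl1* gave 2.86 (1.81 to 4.12) and −1.65 (−2.22 to −1.12), with levels of 268 and 1942 CPM in the first pair and 2350 and 746 CPM in the second.

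*Klra8* moved the same way as *Xcl1*, with log2 ratios of 1.30 (0.48 to 2.20) and −2.13 (−3.09 to −1.26) over all members, and of 2.69 (1.36 to 4.39) and −1.73 (−2.75 to −0.81) in NK-like cells without CD3 UMIs. It was found in 9, 5, 6, and 4 members of Ang2 Ab, mIgG1, *EC-Ang2*, and Ctrl, so that in the second pair more cells were positive where the level was lower. For *Gzmb* the log2 ratios over all members were 1.21 (0.85 to 1.57) and −0.67 (−0.97 to −0.38). In Ang2 Ab against mIgG1, *Gzmb* was at 120 against 5 UMIs in NK-like cells with CD3 UMIs (4.40, 3.14 to 6.05, found in 12 of 19 and 2 of 13 cells), whereas the ratio was 0.51 (−0.18 to 1.23) in those without and −0.08 (−0.71 to 0.53) in CD8-like cells. *Gzma* was within the size rule over all members in both pairs (0.05, −0.14 to 0.24, and 0.04, −0.15 to 0.23). In NK-like cells without CD3 UMIs the *Gzma* ratios were −0.47 (−0.69 to −0.24) and 0.76 (0.57 to 0.96), and in Ctrl 1 such cell held 147 of 336 UMIs.

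Of 13 receptor genes measured in *EC-Ang2* against Ctrl, 7 were lower, 3 were higher, and the median log2 ratio was −0.63 (0.01 over all genes), against 12.9% lower and 13.7% higher of all genes measured. The lower ones included *Klrd1* (−0.92, −1.39 to −0.45), *Klrc1* (−0.84, −1.36 to −0.32), and *Klrk1* (−0.63, −1.12 to −0.15). Within NK-like cells without CD3 UMIs the ratios of *Klrd1* (−0.38, −1.003 to 0.24) and *Klrk1* (−0.10, −0.73 to 0.52) had intervals that included 0. In Ang2 Ab against mIgG1, 4 of 12 receptor genes were higher (*Klra1*, *Klra7*, *Klra8*, and *Cd160*) and 2 lower (*Klrb1b* and *Klrc1*), with a median of 0.32 on the log2 scale, against 9.35% higher and 14.9% lower of the 2449 genes measured. *Klra7* gave 1.86 (1.25 to 2.51) over all members, and −0.41 (−1.50 to 0.69) in NK-like cells without CD3 UMIs.

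Several other differences of the second pair rested on few cells. *Il17a* was at 162 (Ctrl) and 1185 CPM (*EC-Ang2*, log2 ratio 2.87, 2.29 to 3.51), found in 2 of 37 and 8 of 42 members, and 1 cell held 146 of 291 UMIs. In Th-like cells *Il17a* stood at 1404 CPM in Ctrl and 634 CPM in *EC-Ang2*. *Il2* had 64 UMIs in *EC-Ang2* against 1, with 60 in 1 cell. A single cell held 205 of 215 *H2-Aa* UMIs in *EC-Ang2*, and a single cell likewise held 307 of 318 *H2-Ab1* and 153 of 157 *H2-Eb1* UMIs. *Gzmc*, a granzyme gene, had 110 UMIs in 4 Ctrl cells and none in *EC-Ang2*, and 65 UMIs in 3 Ang2 Ab cells and none in mIgG1. Of the immediate early and stress list, which was found in more cells, 3 of 9 genes were lower (*Hspa1a*, *Jun*, and *Fos*) and 1 higher (*Jund*), with a list median of −0.35 on the log2 scale, against 12.9% lower and 13.7% higher of the 2627 genes measured. *Hspa1a* was found in 15 of 37 Ctrl and 7 of 42 *EC-Ang2* members, *Jun* in 12 and 8, and *Fos* in 12 and 17.

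**Figure D4:**
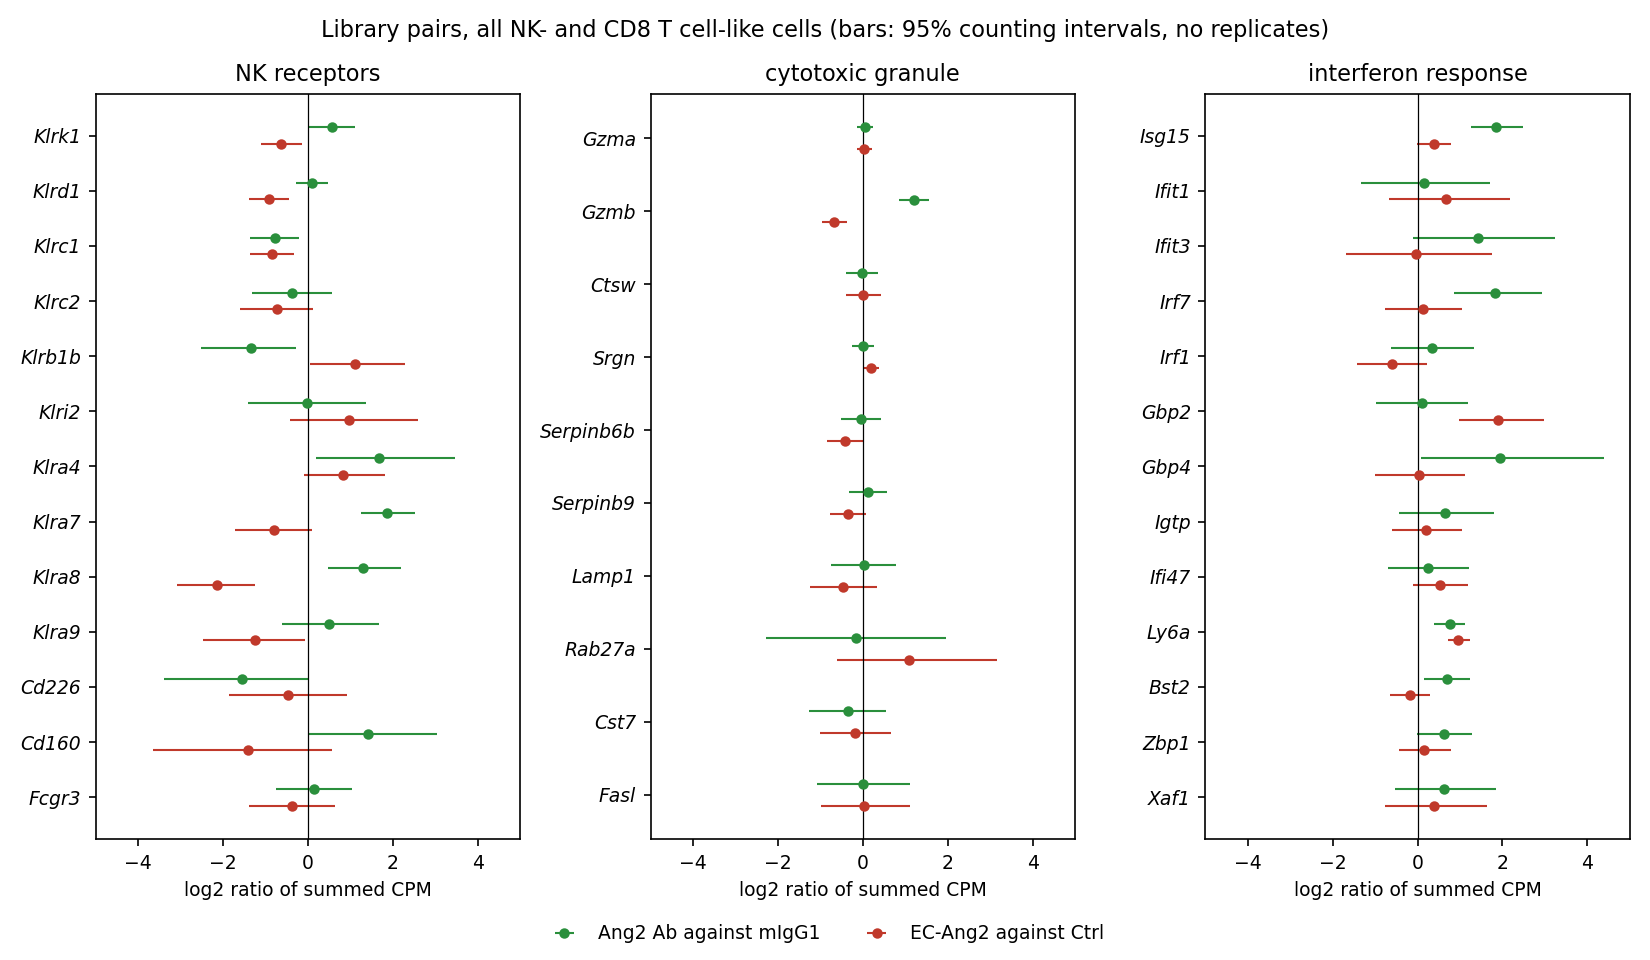
Log2 ratio of summed CPM (x axis) over all member cells for genes with at least 10 UMIs in each pair (y axis) and UMIs in all libraries, of the NK receptor, cytotoxic granule, and interferon response lists, in Ang2 Ab against mIgG1 (green) and *EC-Ang2* against Ctrl (red), with bars for 95% counting intervals that hold no replicate error and no spread between cells. *Gzma* lies near 0 in both pairs, and *Klra8* and *Gzmb* lie on opposite sides.

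Of the receptors for Ang2, *Tek* and *Itga5* were hardly found in these cells. *Tek*, which encodes Tie2, had 3 UMIs in NK-like and 2 in CD8-like cells (2.94% and 3.12% of cells, 0.98% and 0% after thinning), against 54.0% of ECs (23.5% after thinning). *Itga5* had 3 and 1 UMIs. *Itgb1*, the integrin β1 chain, was found in 58.8% of NK-like and 73.4% of CD8-like cells (32.4% and 37.5% after thinning) and in 71.96% of ECs (37.4%). The log2 ratio of *Itgb1* in *EC-Ang2* against Ctrl members was −0.75 (−1.21 to −0.30), and it was the 1 gene of the 6 on this list with enough UMIs. In Ang2 Ab against mIgG1 members the *Itgb1* ratio was 0.15, within the size rule.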

How the data were processed

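The authors sorted CD45+ and CD31+ cells, made 10x 3′ libraries, and aligned them to mm10 with Cell Ranger 2.1.1 per the labels (Seurat 2.3.4 is also named there). They deposited unfiltered raw counts, as UMIs of 27998 genes in 737280 barcodes per library. Library totals were 52084739 to 66631583 UMIs. Here, gates were applied to raw UMIs, with a doublet score computed for each barcode (3 members scored high and were kept; an alternative left them out), and free RNA was not subtracted. Library-by-class sums (12) were fitted with edgeR 4.0.16 (TMM, filterByExpr, library block). On simulated data for NK-like against CD8-like, 2093 genes were tested. Of the changed genes that passed the filter on low counts, 21.4% of 28 at 2-fold, 82.6% of 23 at 4-fold, and 100% of 38 at 8-fold were recovered. Of the calls, 1.56% were false. The simulation held no library effect and no choice of cells by gate genes, so these rates may not hold for the measured cells. Pairs of libraries were compared as CPM ratios with exact binomial intervals.

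The members and lists were chosen with earlier results of these data known. Named genes were the 12 with the largest fold in each direction among called genes whose 4 libraries agreed in sign, the 5 largest in each direction per pair whose interval excluded 0, the 20 most abundant and the 20 with the largest ratio among pooled members, and list genes. Alternatives included DESeq2 1.42.0. Motifs were searched in RefSeq promoters (GRCm38.p6), and gene positions came from GENCODE M21. Genome sequence was not used here, and a few genes of the lists are not reported here.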

Additional observations from a re-analysis of the deposited data

Results flagged for a closer look

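Barcodes with at least 500 UMIs but fewer than the minimum of 1500, which the report leaves out, also carried the gene pattern. In mIgG1 4 such barcodes and in Ang2 Ab 5 met the other lines of the rule, more than the limit of 3 counts, compared with 1 in Ctrl and 0 in *EC-Ang2*. Of the 10 in all, 9 were NK-like by their genes, 7 had *Gzma*, and 1 had a CD3 UMI. Their median was 1222 UMIs.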

How the results depend on the processing

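Of 59 named class results, 40 kept direction and call under every alternative in which the gene was tested (12 for most, and 8 for *1700025G04Rik*, 10 for *Ugcg*, and 11 for *Cd5* and *Amica1*), 19 lost the call under at least 1, and none reversed. Counts of calls, higher then lower in the class named first, moved with the tests. For NK-like against CD8-like cells they were 87 and 44 of 12903 genes with no filter on low counts. They were 12 and 13 of 1685 genes with at least 2500 UMIs per barcode. When only NK-like cells without CD3 UMIs were used, they were 52 and 71 of 1138 genes, against 1996 genes in the reported model. That setting chose cells by CD3 genes, which favored lower T cell genes in NK-like cells. Under each setting, edgeR tested the same genes in every class comparison. Leaving out 1 library left 1912 to 2160 genes and gave 11 (without *EC-Ang2*) to 29 higher (without Ctrl) and 9 (without *EC-Ang2*) to 20 lower. For NK-like against Th-like cells they were 152 and 239 with no filter, 65 lower with 2500 UMIs, and 123 higher with CD3-negative cells only, and without 1 library 42 to 71 higher and 52 to 76 lower, the fewest without Ang2 Ab. For CD8-like against Th-like cells they were 36 and 71 with no filter. The single lower call became 4 with DESeq2 or with CD3-negative NK-like cells, 0 without the replicate block, 2 with 2500 UMIs, without high doublet scores, without cells with 20 or more *Cd74* and *Lyz2* UMIs, or with the 4 cells of both kinds counted as CD8-like, and 0 to 4 without 1 library. The model with library as a block is the one reported, and the labels carry no replicate numbers.

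With 2500 UMIs Ang2 Ab had 30 members, and with thinning to 1500 UMIs before the gates *EC-Ang2* had 23. With at least 50 UMIs per gene, Ang2 Ab against mIgG1 had 52 genes higher and 103 lower, and *EC-Ang2* against Ctrl 90 and 76. In CD8-like cells only, these were 101 and 139, and 189 lower, and in NK-like cells only *EC-Ang2* against Ctrl had 186 higher. Each of these settings also changed the number of genes measured, so the counts cannot be set directly against those over all members. The 2 alternatives on *Cd74* and *Lyz2* and on CD8-like cells only were chosen after seeing the data. The causes of these shifts were not tested. Some of the settings also left fewer cells or genes.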
